A study of Drosophila melanogaster with 12 samples.

Results

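The mRNAs carried by polysomes were compared with the mRNAs of the whole lysate in Drosophila S2 cells depleted of porthos. The comparison rests on 6 of the 12 libraries of the study, 3 of polysome fractions and 3 of input, all from cells given double-stranded RNA (dsRNA) against porthos. Of 17023 gene identifiers counted, 8722 had enough reads in these 6 libraries to be tested. S2 cells are a line of embryonic origin with features of plasmatocytes, the macrophage-like blood cells of the fly. Per the labels' protocols, 1 µg of dsRNA was transfected, the cells were passaged after 48 h and they were harvested 3 days later. The control cells, used here only to ask whether polysome loading differed with porthos, received dsRNA against GFP and were handled alike, with 3 input and 3 polysome libraries of their own. Before lysis, ribosomes were arrested on their mRNAs in all groups with cycloheximide (100 µg/ml, 3 min). A 20% share of the lysate served as input, and polysomes were taken from a 10 to 50% sucrose gradient. The labels list 15 mM EDTA in the lysis buffer and 15 mM MgCl2 in the gradient. Input RNA was extracted with TRIzol and polysome RNA with phenol and chloroform, so that the fraction and its extraction cannot be told apart. All libraries were selected for poly(A) tails. Knockdown by dsRNA lowers a gene's mRNA without removing the gene, and the labels do not say that the replicates came from separate cultures, so that the p-values below refer to the variation among these libraries, part or all of which may be technical.

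Porthos (symbol pths, FBgn0032919, CG9253) is a DEAD-box RNA helicase, one of a family of enzymes that unwind RNA and remodel complexes of RNA and protein. An mRNA in translation is bound by several ribosomes at once, and such polysomes sink deeper into a sucrose gradient than free mRNA or single ribosomes. The ratio of an mRNA in the polysome fraction to the same mRNA in the input is read as its loading onto polysomes. It can reflect how often ribosomes start on the mRNA and how many its coding region can hold, and also how each fraction was prepared. Which of these a ratio reflects was not tested. The ratio is relative to the average mRNA of the 2 fractions, so that a change in loading shared by all mRNAs cannot be seen.

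The 6 libraries held between 7681759 and 11918941 counts. Levels are given as CPM, counts scaled to a common library size, and 3 counts, the least taken as detection, equal 0.252 to 0.391 CPM. This limit concerns counting error alone, because PCR copies of a molecule cannot be recognised. The number of genes with at least 1 count was 11485 to 11864 in 5 of the libraries and 10377 in replicate 3 of the polysome group. On principal component 2, with 22.5% of the variance, that library lay at 27.1 and the other 5 between -17 and 3.15. Values without that library are given where they bear on a result. Of 11 markers of S2 cells and plasmatocytes, 9 exceeded 1 CPM in input, and their summed level ran from 1623 to 1911 CPM. Sr-CIII was at 0.0333 and NimC1 at 0.77 CPM in input. Fat body markers summed to at most 2.97 CPM and muscle markers to at most 18.3. The neuron list reached 152 CPM in input, of which elav had 128, and the germline list reached 259, of which aub had 224. The list of crystal cell and lamellocyte markers reached 1236 CPM, of which the integrin gene mys had 1171.

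porthos mRNA itself was low in these cells. It lies on chromosome 2L at 21143229 to 21145146 on the plus strand, in dm6 coordinates counted from 1. Scaled over all 12 libraries, it had 106, 108 and 95.7 CPM in the 3 porthos dsRNA inputs, and 220, 226 and 222 CPM in the GFP dsRNA inputs. The remaining porthos mRNA had 113, 141 and 93.6 CPM in the porthos dsRNA polysome libraries, which overlap the inputs. Its log2 polysome to input ratio was 0.18 ± 0.11 (SE; edgeR, adjusted p = 0.20), and 0.30 without polysome replicate 3 (edgeR, adjusted p = 0.0092). Its exons overlap those of del on the opposite strand, and the strand setting of the counting is not given in the sources used here.

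Of the 8722 genes, 1980 (22.7%) were higher on polysomes than in input and 1911 (21.9%) were lower (edgeR quasi-likelihood test, Benjamini-Hochberg adjusted p under 0.05). The share called in either direction was 44.6%. Most differences were small. A fitted change of at least 2-fold was reached by 49 higher genes (0.562%) and 153 lower genes (1.75%). With counts scaled by library size alone, 60.9% of the calls were higher, against 50.9% with TMM scaling, so that the even split depends on the scaling. The excess of lower genes at 2-fold depends on it too, since library size alone gave 100 higher and 109 lower. Of genes with a mean of at least 10 CPM, 15 were higher and 107 lower at 2-fold, and with the trend of exon length removed 18 were higher and 90 lower. Without polysome replicate 3 there were 2068 higher and 2156 lower genes, with 57 and 200 at 2-fold.

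The length of the encoded protein ordered the mRNAs along this scale. Protein lengths are those of the longest coding transcript of a gene in the annotation, known for 8190 tested genes. Among the 190 mRNAs for proteins under 100 residues, 124 were higher and 5 lower on polysomes, with a median log2 ratio of 0.67. Among the 939 for 100 up to 200 residues, 606 were higher and 5 lower, with a median of 0.58. The 2265 mRNAs for 200 up to 400 residues had a median of 0.28, with 943 higher and 38 lower. The 2916 for 400 up to 800 residues had a median of -0.08, with 224 higher and 531 lower. Among the 1880 for proteins of 800 residues and more, 8 were higher and 1225 lower, with a median of -0.42. The medians thus fell at every step of length. Without polysome replicate 3, genes under 200 residues lay 1.04 above those of 800 and more in median log2 ratio, beside 1.01 with it. Across genes, which are not independent replicates, Spearman's rho of the log2 ratio with protein length was -0.74 (8190 genes), and with the summed exon length of the gene it was -0.65 (8524 genes). Both lengths are shared by all libraries and enter library preparation as well as translation, and their part in the ratios was not tested.

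**Figure D1:**
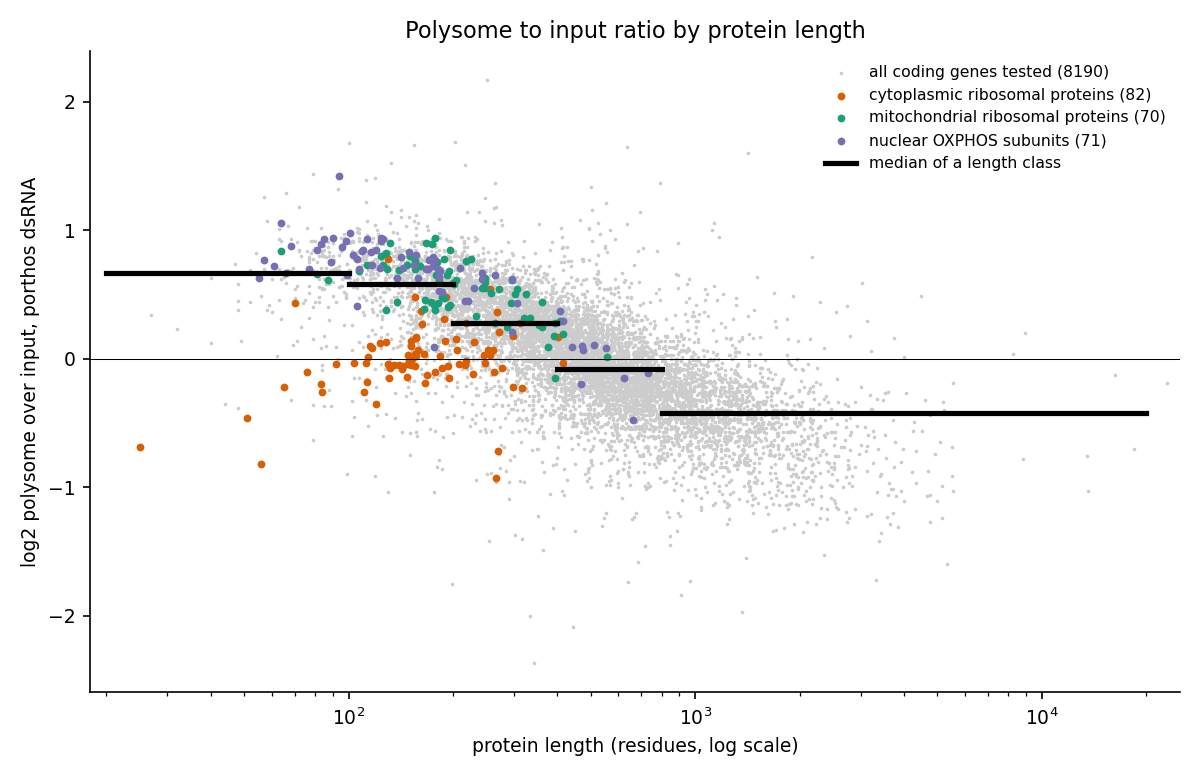
Each grey point is 1 of 8190 coding genes, with protein length in residues on a log scale and the log2 polysome to input ratio in porthos dsRNA cells. Black bars are class medians, which fall from 0.67 to -0.42, and the cytoplasmic ribosomal proteins (orange) lie below genes of like length, while mitochondrial ribosomal proteins (green) and OXPHOS subunits (purple) lie among them.

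UTR length followed the ratio less closely. The rho was -0.28 with 5′ UTR length and -0.27 with 3′ UTR length. After the trend with protein length was taken out, these were -0.05 and -0.10. The rho with mean CPM was -0.15, and -0.01 after the same step.

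Few short mRNAs went against the order of length, and ribosomal proteins made up most of them. Of 1129 coding genes under 200 residues, 10 were lower on polysomes, and 6 of these 10 encode cytoplasmic ribosomal proteins, a group with 56 of the 1129 genes. All 5 lower genes under 100 residues were of this kind: RpS29, RpL41, RpL39, RpS27 and RpS28b. From 100 up to 200 residues the 5 were RpS20, amn, drn, CG18545 and CG12826, the last a pair with at most 3.01 CPM in any library. In the other direction, 8 mRNAs for proteins of 800 residues and more were higher on polysomes. They were Lpt, a chromatin regulator of the trithorax-related complex, PIP5K59B, a phosphoinositide kinase, Pde1c, a cyclic nucleotide phosphodiesterase, f (forked, an actin-bundling protein), eys, CG10321, CG17666 and CG12075. Lpt had 91.7, 96.2 and 87.3 CPM in input and 121, 131 and 106 CPM on polysomes, with no overlap, a log2 ratio of 0.38 ± 0.09 (SE; edgeR, adjusted p = 0.0017). The call of f was lost without any 1 library other than polysome replicate 3 (log2 ratio 0.40 to 0.55; edgeR, adjusted p = 0.071 to 0.16). These genes, apart from RpS29, RpS20 and f, were named after their values were seen.

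Among genes that were called, had at least 10 CPM in a group and no overlap of the groups, the largest ratio in either direction belonged to roX1. This long noncoding RNA (X, 3857230 to 3862697, minus strand), which guides the dosage compensation complex to the male X chromosome in the nucleus, had 167, 168 and 184 CPM in input and 33.4, 40.8 and 29.2 CPM on polysomes. The groups lay far apart, and the log2 ratio was -2.33 ± 0.10 (SE; edgeR, adjusted p = 1.2e-10), and -2.24 without polysome replicate 3. roX2, its partner in the same complex, had 62.3, 74 and 67.4 CPM in input and 24.6, 23.3 and 28.9 CPM on polysomes. Its log2 ratio was -1.41 ± 0.11 (SE; edgeR, adjusted p = 3.3e-08). Among other noncoding genes of this rank were the spliceosomal snRNA:U2:34ABa at -1.83, the snoRNA host gene Uhg2 at -1.67, lncRNA:CR40469 at -1.64, the pseudogene CR10102 at -1.64 and lncRNA:CR32218 at -1.56. Of these, snRNA:U2:34ABa, CR10102 and lncRNA:CR32218 reached the limit of 10 CPM through input alone, which favours low ratios. Their polysome means were 3.61, 4.9 and 9.97 CPM.

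Most of the coding genes with the lowest ratios under the same limits, of at least 10 CPM in a group and no overlap, encode long proteins. Below these limits there were lower ratios of shorter proteins, such as CG18545 at -1.75, with at most 3.01 CPM in any library. Vps13 (2R, 7566809 to 7580675, plus strand), a lipid transfer protein of 3321 residues, had 262, 255 and 278 CPM in input and 78.2, 76.5 and 87.4 CPM on polysomes. All polysome values lay below all inputs, with a log2 ratio of -1.72 ± 0.08 (SE; edgeR, adjusted p = 1.3e-10), or -1.79 without polysome replicate 3. Its exons overlap blow on the opposite strand. poe, a ubiquitin ligase of 5322 residues, had 1249, 1289 and 1329 CPM in input and 386, 438 and 449 CPM on polysomes, a log2 ratio of -1.60 ± 0.08 (SE; edgeR, adjusted p = 4.7e-10). The golgin Gmap was at -1.55, the nuclear pore protein Mgtor at -1.53 and the cell adhesion protein Nrt at -1.45.

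Arc1 did not share that length. It encodes a protein of 254 residues that derives from a retrotransposon Gag protein and forms capsids (2R, 14357927 to 14360297, minus strand). It had 3095, 3138 and 3157 CPM in input and 1032, 1583 and 885 CPM on polysomes. Polysome replicate 2 was the highest of its group and still lay below every input. The log2 ratio was -1.42 ± 0.14 (SE; edgeR, adjusted p = 3.7e-07), where the median of genes with 200 up to 400 residues was 0.28. With the trend of protein length removed it was -1.78 (edgeR, adjusted p = 2.7e-07), and without polysome replicate 3 it was -1.28.

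Toward polysomes the largest ratio among genes with at least 10 CPM in a group was that of stv (3L, 13477541 to 13483515, plus strand), a co-chaperone of the Hsp70 family with a BAG domain. It had 18.2, 21.5 and 21.3 CPM in input and 47.6, 35.8 and 109 CPM on polysomes. Polysome replicate 3 stood well above the other 2. The log2 ratio was 1.65 ± 0.27 (SE; edgeR, adjusted p = 7e-05), and 1.02 without that library (edgeR, adjusted p = 1.7e-06). With 635 residues, stv lay in a length class whose median was -0.08.

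The fatty acid binding protein gene fabp (3R, 11559896 to 11567054, minus strand) had 149.5, 183 and 205 CPM in input and 392, 374 and 402 CPM on polysomes. Its polysome values were close together and clear of the inputs, with a log2 ratio of 1.12 ± 0.10 (SE; edgeR, adjusted p = 1.2e-07), or 1.08 without polysome replicate 3. ND-AGGG, an accessory subunit of respiratory complex I with 94 residues, had 7.54, 8.69 and 10.5 CPM in input and 24.1, 17.9 and 29.9 CPM on polysomes, a log2 ratio of 1.42 ± 0.19 (SE; edgeR, adjusted p = 9e-06). Polr1D, a subunit shared by RNA polymerases I and III, and ATPsynepsilonL, a subunit of ATP synthase, were both at 1.06. The remaining genes of this rank were CG14036, CG41128, CG13689, lncRNA:CR45187, CG33460, CG33169 and CG8157, with log2 ratios between 1.07 and 1.32. None of these 7 passed 24 CPM in any library. These 7, ND-AGGG and ATPsynepsilonL reached the limit of 10 CPM through polysomes alone, which favours high ratios. Their input means ran from 5.24 CPM (CG14036) to 9.23 CPM (ATPsynepsilonL).

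**Figure D2:**
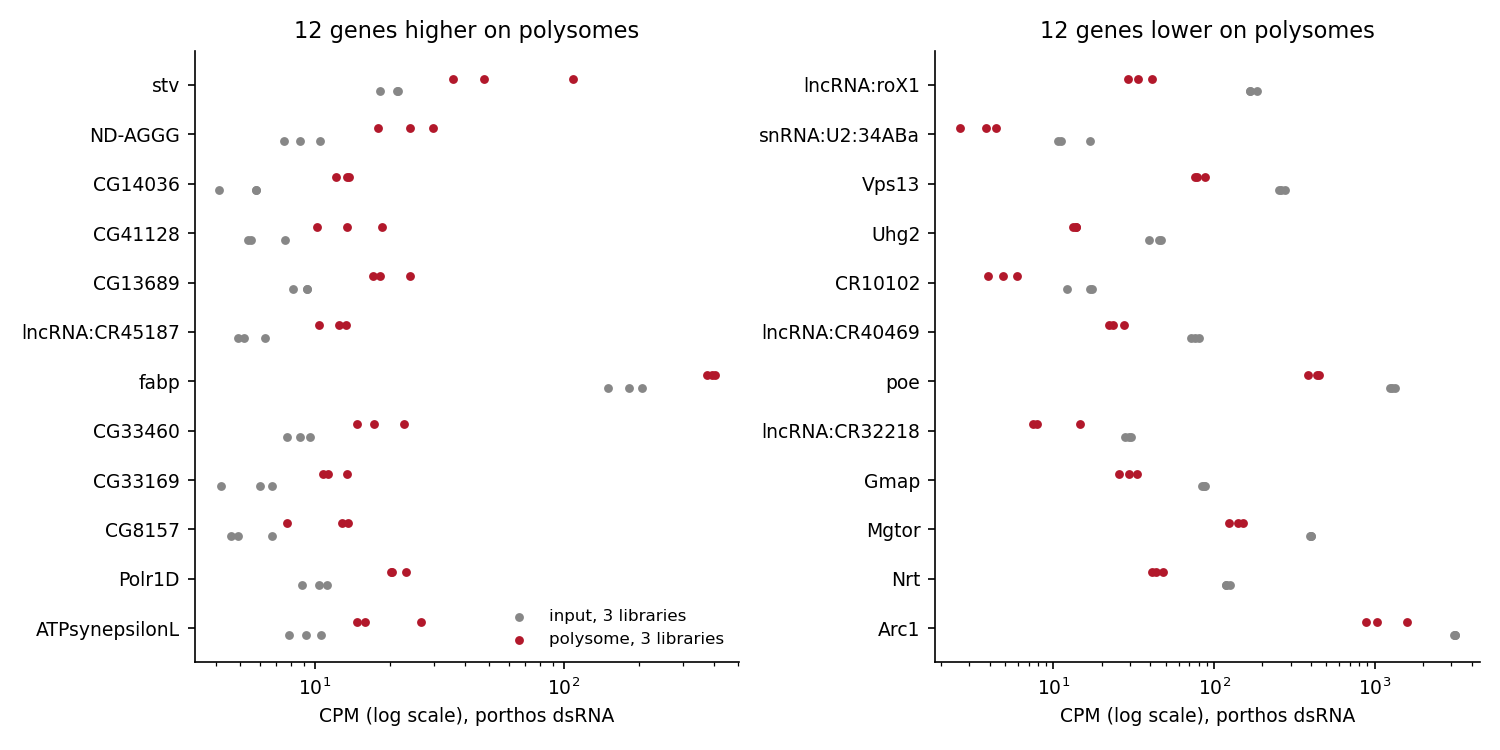
CPM on a log scale in each input (grey) and polysome (red) library of porthos dsRNA cells, for the 12 genes with the largest log2 ratio in each direction among called genes with no overlap of the groups and at least 10 CPM in a group. The genes are in order of the log2 ratio from the top, and polysome replicate 3 is the point at 109 CPM for stv.

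The mRNAs for cytoplasmic ribosomal proteins, although short, were spread evenly about a ratio of 0 between polysomes and input. These proteins build the ribosome itself, and in mammals their mRNAs begin with a pyrimidine tract through which their translation is controlled as a group. Of 82 members tested, with a median length of 156.5 residues, 10 were higher (12.2%) and 9 lower (11%). Their median log2 ratio was -0.03, beside 0.02 over all genes tested. Over all genes 22.7% were higher and 21.9% lower, and the counts of the groups below are to be read beside these shares. The 47 members of 100 up to 200 residues had a median of -0.01, where the 892 other genes of that class had 0.59, and 43 of the 47 lay below the lower quartile of those genes (0.37). The 9 members under 100 residues had a median of -0.22, beside 0.68 for the 181 others, and all 9 lay below their lower quartile (0.47). The large subunit proteins had a median of -0.01 (47 members) and those of the small subunit -0.04 (35 members). Without polysome replicate 2, 32 members were lower in place of 9, and without polysome replicate 3 there were 12 higher and 7 lower, with a median of 0.05. The polysome libraries differed among themselves here, with member medians of -0.09, 0.16 and -0.12 against the mean of the inputs.

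With the trend of protein length taken out of each library, an alternative chosen after the data were seen, 67 of the 82 were lower and the other 15 were not called, with a median of -0.49. The background in that fit was 9.18% lower and 7.59% higher of 8190 coding genes. With the trend of exon length taken out instead, 62 were lower and the other 20 were not called, with a median of -0.42, beside a background of 12.1% and 11.7%. In the fit without a length trend, edgeR called the members RpS2, RpS29 and sta lower and RpS15Ab higher with the smallest p of the group. RpS2 had 1328, 1424 and 1227 CPM in input and 674, 816 and 598 CPM on polysomes. All polysome values were under the inputs, with a log2 ratio of -0.93 ± 0.10 (SE; edgeR, adjusted p = 9.7e-07). RpS29, which encodes 56 residues, had 1910.4, 1939.6 and 1850.1 CPM in input and 1051, 1246 and 942 CPM on polysomes, a log2 ratio of -0.82 ± 0.09 (SE; edgeR, adjusted p = 1.4e-06), and overlaps the antisense gene asRNA:CR31514. sta, the small subunit protein SA, was at -0.72 ± 0.11 (SE; edgeR, adjusted p = 4.2e-05). RpS15Ab had 38.9, 38.4 and 34.4 CPM in input and 62.3, 72.4 and 57.3 CPM on polysomes, but reads of its near copy RpS15Aa could be split between the genes, which leaves its ratio of 0.78 uncertain.

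Mitochondrial ribosomal proteins and nuclear subunits of oxidative phosphorylation (OXPHOS) were mostly higher on polysomes. Their mRNAs are made in the nucleus, translated in the cytoplasm and their products imported. Of 70 mitochondrial ribosomal proteins tested, 61 were higher and the other 9 were not called, with a median log2 ratio of 0.57. mRpL23 had 63.8, 67.1 and 65.9 CPM in input and 119, 109.5 and 114 CPM on polysomes. The groups did not overlap, and the log2 ratio was 0.80 ± 0.08 (SE; edgeR, adjusted p = 4.2e-07). mRpL13 was at 0.94, mRpS7 at 0.76 and mRpL14 at 0.72.

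Of 71 OXPHOS subunits tested, 59 were higher and 1, SdhA, was lower, with a median log2 ratio of 0.70. Complex I had 29 higher of 32 and a median of 0.71, complex III 6 of 8 and 0.59, complex IV 10 of 12 and 0.84, and complex V 12 of 15 and 0.70. UQCR-11 of complex III had 88.2, 98.5 and 84.4 CPM in input and 182, 153 and 181 CPM on polysomes. Its log2 ratio was 0.93 ± 0.09 (SE; edgeR, adjusted p = 2.4e-07). COX7A and COX5A of complex IV were at 0.92 and 0.83, and ATPsyndelta of complex V at 0.81. In complex II, SdhC (171 residues) was at 0.77 and SdhD (182 residues) at 0.53, while SdhA, its flavoprotein of 661 residues, was at -0.48. Without polysome replicate 3, 62 mitochondrial ribosomal proteins and 60 OXPHOS subunits were higher, and 2 OXPHOS subunits were lower.

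These 2 groups are also short, with medians of 193 and 154 residues. With the trend of protein length taken out, 7 of 70 mitochondrial ribosomal proteins and 17 of 71 OXPHOS subunits were higher, with medians of 0.15 and 0.18 and a background of 7.59% higher. 1 OXPHOS subunit was then lower, SdhA. All 37 mitochondrially encoded genes are listed at 0 in the 6 libraries, so that mitochondrial translation was not measured.

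Other mitochondrial groups were mixed. Of 15 import factors and chaperones, 8 were higher (53.3%) and 3 lower (20%), with a median log2 ratio of 0.35. Over all genes these shares were 22.7% and 21.9%. Tom20, a receptor of the outer membrane, had 179, 198 and 213 CPM in input and 373, 379.5 and 366 CPM on polysomes, a log2 ratio of 0.92 ± 0.08 (SE; edgeR, adjusted p = 1.3e-07). Tom7 was at 0.82 and the inner membrane translocase subunit Tim17b at 0.67, while the matrix chaperonin Hsp60A was at -0.78. Of 19 TCA cycle genes, 6 were higher (31.6%) and 2 lower (10.5%), with a median of 0.09. Without polysome replicate 3 there were 4 lower. Ogdh, with 1105 residues, was at -0.69. Of 12 glycolysis genes, 6 were higher (50%) and 2 lower (16.7%), with a median of 0.20. The 2 lower members became 4 without polysome replicate 3 and 1 without any other library except polysome replicate 1. Pfk, the committed step of glycolysis, was at -0.69, and Pglym78, Tpi and Gapdh1 were at 0.51, 0.43 and 0.34.

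**Figure D3:**
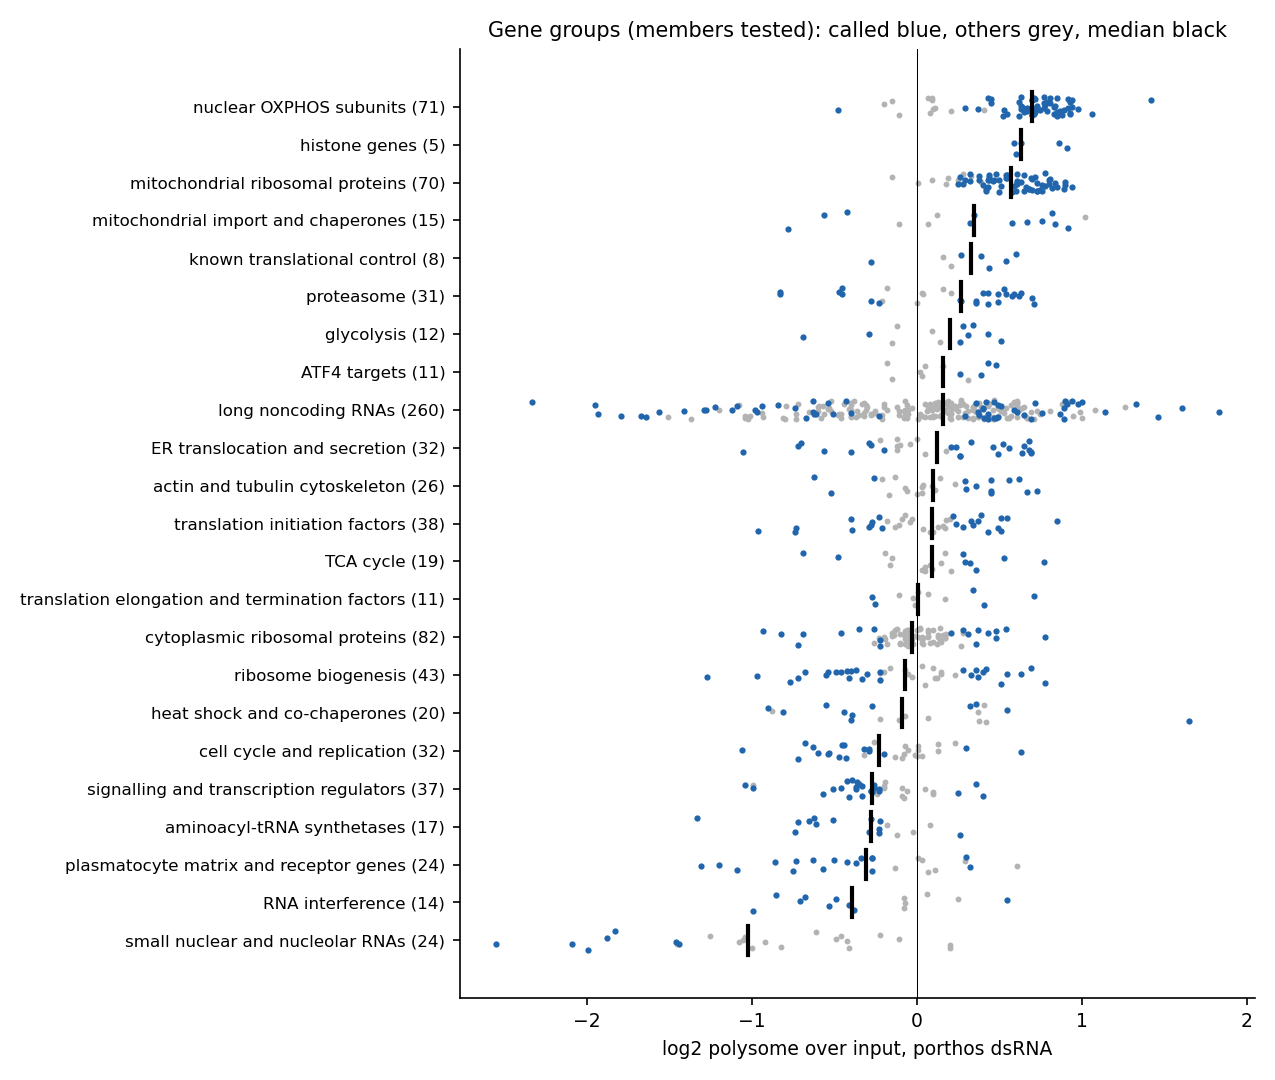
Each point is the log2 polysome to input ratio of 1 member of a gene group in porthos dsRNA cells, blue where called at an adjusted p under 0.05, with the group median as a black bar. Groups are ordered by the median of members tested, with OXPHOS subunits (0.70) at one end and small nuclear and nucleolar RNAs at the other. Members of the latter could pass the filter on low counts through input alone. Most groups have members on both sides of 0.

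The translation machinery beyond the ribosome followed no single direction. Of 38 initiation factors, 13 were higher (34.2%) and 10 lower (26.3%), beside 22.7% and 21.9% of all genes. Their median log2 ratio was 0.09, and without polysome replicate 3 there were 17 higher and 9 lower. eIF1, a small factor that acts in the choice of the start codon, had 748, 846 and 749.5 CPM in input and 1384, 1458 and 1384 CPM on polysomes. Its groups were well apart, with a log2 ratio of 0.85 ± 0.08 (SE; edgeR, adjusted p = 2.2e-07). eIF4G1, the scaffold of the cap-binding complex with 1919 residues, had 966, 945 and 886 CPM in input and 502, 423 and 510 CPM on polysomes, a log2 ratio of -0.96 ± 0.09 (SE; edgeR, adjusted p = 1.6e-07). eIF3a was at -0.73 and eIF4G2 at -0.74. Of 11 elongation and termination factors, 3 were higher (27.3%) and 2 lower (18.2%), near the shares over all genes, with a median of 0.01. The 2 lower became 1 without input replicate 1 or 2. The called members included eEF1delta at 0.71, the ribosome rescue factor pelo at 0.34 and the translocation factor eEF2 at -0.27.

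Aminoacyl-tRNA synthetases, which charge tRNAs, were mostly lower. Of 17 members, 12 were lower (70.6%) and 1 higher (5.88%), with a median log2 ratio of -0.28 and a median length of 741 residues. The 1 higher member was not called without input replicate 2, input replicate 3 or polysome replicate 1. GluProRS, a fused enzyme of 1714 residues, had 621, 681 and 617 CPM in input and 261, 250.2 and 252 CPM on polysomes, a log2 ratio of -1.33 ± 0.08 (SE; edgeR, adjusted p = 3.2e-09). ValRS, MetRS and AlaRS were at -0.74, -0.65 and -0.72. With protein length taken out, 5 of 17 were lower and the other 12 were not called, beside 9.18% of coding genes lower. Of 43 ribosome biogenesis genes, 11 were higher (25.6%) and 17 lower (39.5%), beside 22.7% and 21.9% of all genes. Their median of -0.07 became 0.01 with scaling by library size alone and 0.03 with protein length taken out, with 6 higher and 7 lower in the latter. With exon length taken out, 2 were higher and 14 lower, with a median of -0.12. Beside this, 11.7% of all genes were higher and 12.1% lower. The members with the smallest p were CG4554 at -1.27, Mybbp1A at -0.97, Mat89Ba at -0.77 and Polr1A, the largest subunit of RNA polymerase I, at -0.72.

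Proteasome genes, whose products degrade proteins marked with ubiquitin, went in both directions. Of 31 members, 17 were higher (54.8%) and 7 lower (22.6%), with a median log2 ratio of 0.27. Over all genes these shares were 22.7% and 21.9%. The core particle subunits Prosbeta6 (235 residues) and Prosalpha3 (264 residues) were at 0.70 and 0.62. The scaffold subunits of the regulatory particle Rpn1 (919 residues) and Rpn2 (1029 residues) were both at -0.83. With protein length taken out, 5 of the 31 were higher and 8 lower, with a median of 0.02, beside 7.59% and 9.18% of coding genes. Of 32 genes of ER translocation and secretion, 15 were higher (46.9%) and 8 lower (25%), with a median of 0.12. Among them were the translocon subunit Sec61beta at 0.69, the signal peptidase subunit Spase22-23 at 0.68, and the COPII coat factors Sec16 at -0.72 and Sec31 at -1.05. Of 20 heat shock proteins and co-chaperones, 4 were higher (20%) and 7 lower (35%), with a median of -0.09. The 4 higher became 2 without input replicate 2, input replicate 3 or polysome replicate 1. Beside stv they included Hsp23 at 0.55, while the ER chaperones Gp93 and Hsc70-3 were at -0.81 and -0.55.

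Matrix and receptor genes of plasmatocytes, which mark this cell type, were mostly lower on polysomes. Of 24 members, with a median length of 1143 residues, 15 were lower and 2 higher, with a median log2 ratio of -0.31. LanA, a laminin chain of 3712 residues, had 4459, 4560 and 4404 CPM in input and 1944, 1922 and 1970.1 CPM on polysomes. The 3 values within each group lay close together, and the log2 ratio was -1.20 ± 0.07 (SE; edgeR, adjusted p = 1.1e-09). Hemolectin (Hml) was at -1.31, the integrin ligand Tig at -1.09 and LanB1 at -0.75. With protein length taken out, 4 were lower and 3 higher, with a median of 0.02, beside 9.18% and 7.59% of coding genes.

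In 3 more groups lower members outnumbered higher ones. Of 37 signalling and transcription regulators, 22 were lower and 3 higher, with a median log2 ratio of -0.27. With scaling by library size alone 14 were lower. With exon length taken out the median was 0.10, with 7 higher and 2 lower, beside 11.7% and 12.1% of all genes. With protein length taken out the median was 0.01. Myc, the growth regulator, had 509.6, 492 and 503 CPM in input and 250, 213 and 296 CPM on polysomes, a log2 ratio of -0.99 ± 0.10 (SE; edgeR, adjusted p = 5e-07). It was at -0.78 with protein length taken out (edgeR, adjusted p = 3.6e-05). The receptor dome of the JAK-STAT pathway was at -1.04, the receptor tyrosine kinase Pvr at -0.57 and the NF-kappaB factor dl at -0.46. Of 14 RNA interference genes, 8 were lower and 1 higher, with a median of -0.39, including the dicers Dcr-2 at -0.99 and Dcr-1 at -0.68 and the Argonautes AGO1 at -0.85 and AGO2 at -0.71. Leaving out polysome replicate 2, or scaling by library size alone, made the higher members 2. The median length of this group was 955 residues. With protein length taken out, 2 of the 14 were lower and 1 higher, with a median of -0.03. With exon length taken out, 5 were lower and 2 higher, with a median of -0.01. Of 32 cell cycle and replication genes, 15 were lower and 2 higher, with a median of -0.23, including the spindle checkpoint kinase BubR1 at -1.06, the replicative helicase subunit Mcm5 at -0.72, the ribonucleotide reductase subunit RnrL at -0.68 and the licensing inhibitor geminin at 0.63. With protein length taken out, 10 of the 32 were lower and the other 22 were not called, with a median of -0.17, beside 9.18% of coding genes lower. The 2 higher members became 5 when only library sizes were used for scaling.

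Cytoskeletal genes were mixed, and the histone genes tested were higher. Of 26 actin and tubulin cytoskeleton genes, 10 were higher and 3 lower, and 13 were not called, with a median log2 ratio of 0.10 and a median length of 376 residues. The cofilin gene tsr had 2009, 2214 and 1950.4 CPM in input and 3356, 3562 and 3324 CPM on polysomes, a log2 ratio of 0.73 ± 0.07 (SE; edgeR, adjusted p = 4.8e-07). Arpc5 and Arpc3A of the Arp2/3 complex were at 0.67 and 0.62, and the myosin light chain sqh at 0.56. With protein length taken out, 1 of the 26 was higher, 3 were lower and the median was -0.01, beside 7.59% and 9.18% of coding genes. All 5 histone genes tested were higher, with a median of 0.63 and a median length of 136 residues. With protein length taken out, 2 of the 5 were higher and 0 lower, with a median of 0.08. The 5 included His4r at 0.91, His3.3A at 0.86, His2Av at 0.63 and His3.3B at 0.60. These are replacement histones whose mRNAs, unlike those of the replication-dependent genes, end in poly(A) tails. The other members of the list, most of which are replication-dependent genes, did not pass the filter on low counts.

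Noncoding RNAs were not uniformly depleted. Of 260 long noncoding RNAs tested, 35 were higher (13.5%) and 28 lower (10.8%) on polysomes, with a median log2 ratio of 0.16. Over all genes these shares were 22.7% and 21.9%. The 35 became 21 without input replicate 3 and 23 without polysome replicate 1, and with no filter on low counts the median was -0.15. With exon length taken out, 8 were higher and 43 lower, with a median of -0.18, beside 11.7% and 12.1% of all genes. Of 289 small nuclear and nucleolar RNAs listed, 24 passed the filter on low counts, and 7 of these were lower and the other 17 were not called (edgeR). A member could pass through its input level alone, which favours low ratios. Neither the 7 lower calls nor the median of -1.02 over the 24 therefore describes the list. All 24 were low in these poly(A)-selected libraries, and none had a mean of 10 CPM over the 6. snRNA:U12 had 4.54, 4.8 and 6.71 CPM in input and 0.968, 1.31 and 1.78 CPM on polysomes. Its log2 ratio was -1.99 ± 0.36 (SE). snRNA:U5:34A and snRNA:U5:63BC were at -2.55 and -2.09, with polysome values under 1.1 CPM. The limit of the filter bears on the ratios of these snRNAs as well, which are given as values only. The host genes of snoRNAs, whose spliced transcripts carry snoRNAs in their introns, were all toward the input. Of 6 tested, 4 were called, Uhg2 at -1.67, Uhg4 at -1.28, Uhg5 at -0.98 and Uhg1 at -0.43, and Uhg8 and Uhg3 had log2 ratios of -0.25 and -0.21 that did not pass the test. These 6 were gathered after the value of Uhg2 was known.

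Of 8 mRNAs with known translational control, 5 were higher and 1 lower, with a median log2 ratio of 0.33. The 1 lower member was not called without input replicate 2 or polysome replicate 1, or with scaling by library size alone. With protein length taken out, 2 of the 8 were higher and 0 lower, with a median of 0.04. Oda, the antizyme whose full protein needs a ribosomal frameshift, had 686, 689 and 686 CPM in input and 1028, 1000.3 and 1087 CPM on polysomes, a log2 ratio of 0.60 ± 0.08 (SE; edgeR, adjusted p = 6.1e-06). PPP1R15, a phosphatase regulator with upstream reading frames, had 316, 324 and 326 CPM in input and 472, 474 and 455 CPM on polysomes, a log2 ratio of 0.54 ± 0.08 (SE; edgeR, adjusted p = 2.1e-05). The ferritin chain Fer1HCH was at 0.44, and its exons overlap Fer2LCH. Thor, the 4E-BP that inhibits the cap-binding factor eIF4E, was at 0.39, and at -0.21 with protein length taken out. ATF4 is the transcription factor of the integrated stress response. Of 11 of its targets, 4 were higher (36.4%) and the other 7 were not called, with a median of 0.16. They were Gadd45 at 0.48, Nmdmc at 0.43, Thor and Ldh at 0.26, of which Ldh lost its call without input replicate 2, input replicate 3 or polysome replicate 1 (log2 ratio 0.17 to 0.24; edgeR, adjusted p = 0.068 to 0.15). Without polysome replicate 2, 1 target was lower. With protein length taken out, 1 of the 11 targets was higher and 0 were lower, with a median of -0.03.

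The same fractions of control cells show which of these patterns were present with porthos at its usual level. In GFP dsRNA cells, which share no library with the 6 above, 2640 of 8688 genes were higher on polysomes (30.4%) and 2654 lower (30.5%). Of the 1980 genes higher in porthos-depleted cells, 1769 were also higher in control cells, which is 89.3% of the one list and 67.0% of the other. Of the 1911 lower, 1771 were shared, 92.7% and 66.7%. The rho with protein length was -0.75 in control cells (8060 genes), and the medians of the length classes, from shortest to longest, were 0.99, 0.76, 0.32, -0.13 and -0.45. The cytoplasmic ribosomal proteins were more often higher than lower in control cells, with 32 of 82 higher, 5 lower and a median of 0.18. With porthos dsRNA these values were 10, 9 and -0.03. The member medians of single polysome libraries overlapped. They were 0.39, 0.16 and -0.06 in control cells and -0.09, 0.16 and -0.12 with porthos dsRNA. The members lay below other genes of their length in control cells too. There the members of 100 up to 200 residues had a median of 0.20, beside 0.77 for the others. With protein length taken out 66 of 82 were lower and 2 higher in control cells, with a median of -0.46 and a background of 23.1% lower and 22.5% higher. roX1 was at -2.10, Vps13 at -1.65 and Arc1 at -1.25 in control cells.

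The gap between short and long mRNAs was smaller in each porthos-depleted library than in each control library, a difference that did not pass an exact test. The median log2 ratio of genes under 200 residues minus that of genes of 800 and more was 1.04, 1.03 and 0.90 in the 3 polysome libraries with porthos dsRNA, each set against the mean of its inputs. It was 1.45, 1.10 and 1.11 with GFP dsRNA. The groups did not overlap, at 0.99 ± 0.08 and 1.22 ± 0.20 (SD, n = 3), but control replicate 1 stood well above the others. A two-sided exact permutation test gave p = 0.1, the smallest that this test can give with 3 against 3. The interquartile range over all genes was 0.69 ± 0.02 with porthos dsRNA and 0.79 ± 0.10 with GFP dsRNA (SD, n = 3; two-sided exact permutation test, p = 0.1). Spearman's rho with protein length was -0.71, -0.69 and -0.59 with porthos dsRNA and -0.72, -0.69 and -0.69 with GFP dsRNA. These overlap, at -0.66 ± 0.07 and -0.70 ± 0.02 (SD, n = 3; two-sided exact permutation test, p = 0.5). Adjusted over these 3 measures by Benjamini-Hochberg, the exact permutation p-values were 0.15 for the gap, 0.15 for the interquartile range and 0.5 for rho. OXPHOS medians were 0.63, 0.83 and 0.58 with porthos dsRNA and 1.23, 0.92 and 0.80 with GFP dsRNA, which overlap. Ribosome biogenesis medians were -0.02, -0.12 and -0.12 with porthos dsRNA and -0.50, -0.33 and -0.32 with GFP dsRNA, which do not.

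**Figure D4:**
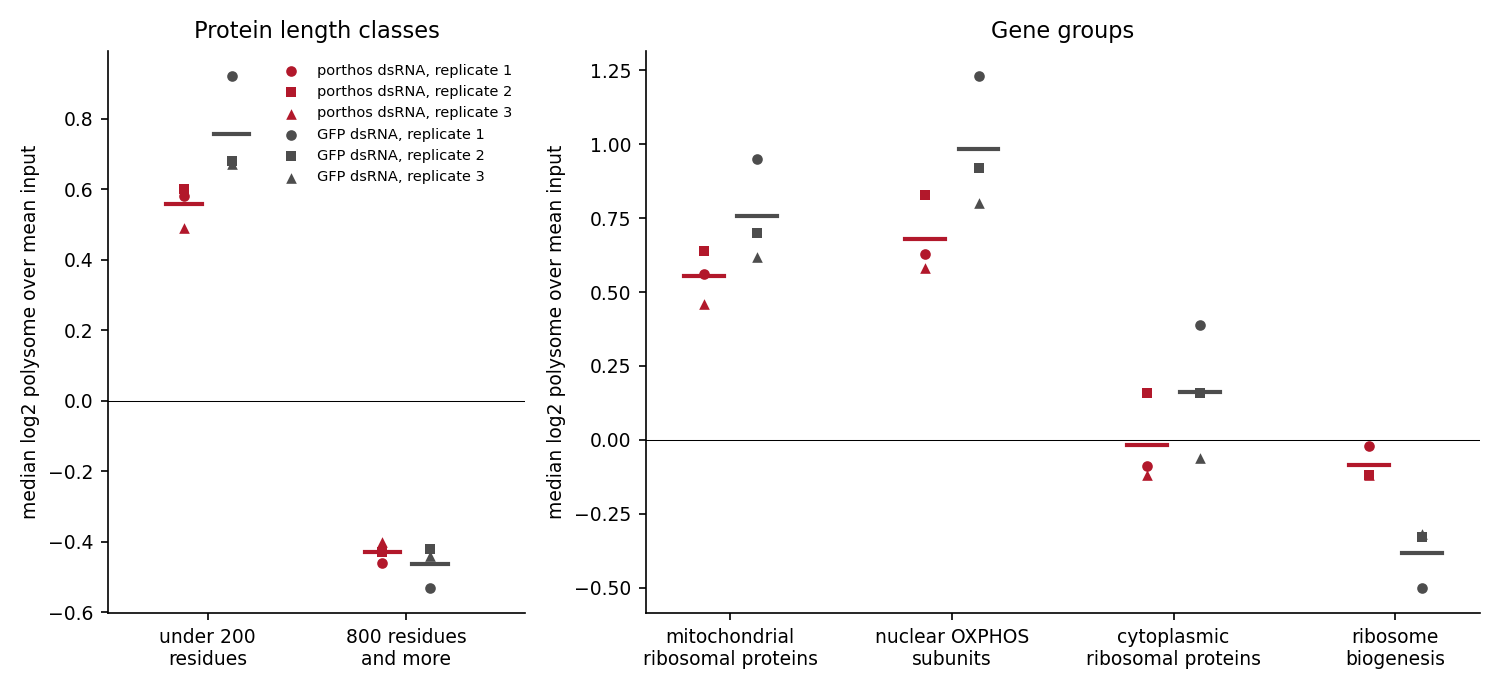
Median log2 ratio of each polysome library to the mean input of its dsRNA treatment, for short and long proteins (left) and for 4 gene groups (right), with porthos (red) and GFP (dark grey) dsRNA. Symbols mark replicates and bars the mean of 3, and control replicate 1 lies farthest from 0 in all 6 of these classes and groups.

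The difference between the treatments was tested gene by gene as an interaction over all 12 libraries. Of 9024 genes, 9 were called (0.0997%), 7 with a higher ratio in porthos-depleted cells (0.0776%) and 2 with a lower one (0.0222%). Of the named groups, 2 ribosome biogenesis genes and 1 cytoplasmic ribosomal protein were among them. Ns1 (nucleostemin 1), a nucleolar GTPase of ribosome assembly, had 231, 232 and 214 CPM in input and 221, 177 and 204 CPM on polysomes with porthos dsRNA. With GFP dsRNA it had 208, 202 and 197 CPM in input and 102, 113 and 119.5 CPM on polysomes. Its control polysome values lay below all others, and the log2 difference was 0.69 ± 0.12 (SE; edgeR, adjusted p = 0.018). Nopp140, a nucleolar chaperone of snoRNPs, had 433, 460.1 and 441 CPM in input and 343, 292 and 325 CPM on polysomes with porthos dsRNA, and 421, 403 and 378 CPM in input and 178, 204 and 182 CPM on polysomes with GFP dsRNA. It was lower on polysomes in both treatments, with a log2 difference of 0.62 ± 0.11 (SE; edgeR, adjusted p = 0.029). RpS20 had 299, 305 and 291 CPM in input and 229, 278 and 189.9 CPM on polysomes with porthos dsRNA, and 271, 269.6 and 253 CPM in input and 408, 367 and 289 CPM on polysomes with GFP dsRNA. It was thus lower on polysomes in the one and higher in the other, with a log2 difference of -0.78 ± 0.16 (SE; edgeR, adjusted p = 0.047). RpS20 overlaps CG17272 on the opposite strand.

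The count of 9 was not stable. edgeR called 0 genes without input GFP replicate 1 or 2, input porthos replicate 1 or 3, polysome GFP replicate 1 or 2, or polysome porthos replicate 1, with 931 to 1302 genes at an unadjusted p under 0.05 in these fits. It called 3 without input porthos replicate 2, 6 without input GFP replicate 3 or polysome porthos replicate 3, 79 without polysome GFP replicate 3 and 694 without polysome porthos replicate 2. DESeq2 called 227 on all 12 libraries. edgeR with a replicate block, in which same-numbered libraries of a treatment count as 1 lysate, also called 227, of which 175 were higher and 52 lower.

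**Figure D5:**
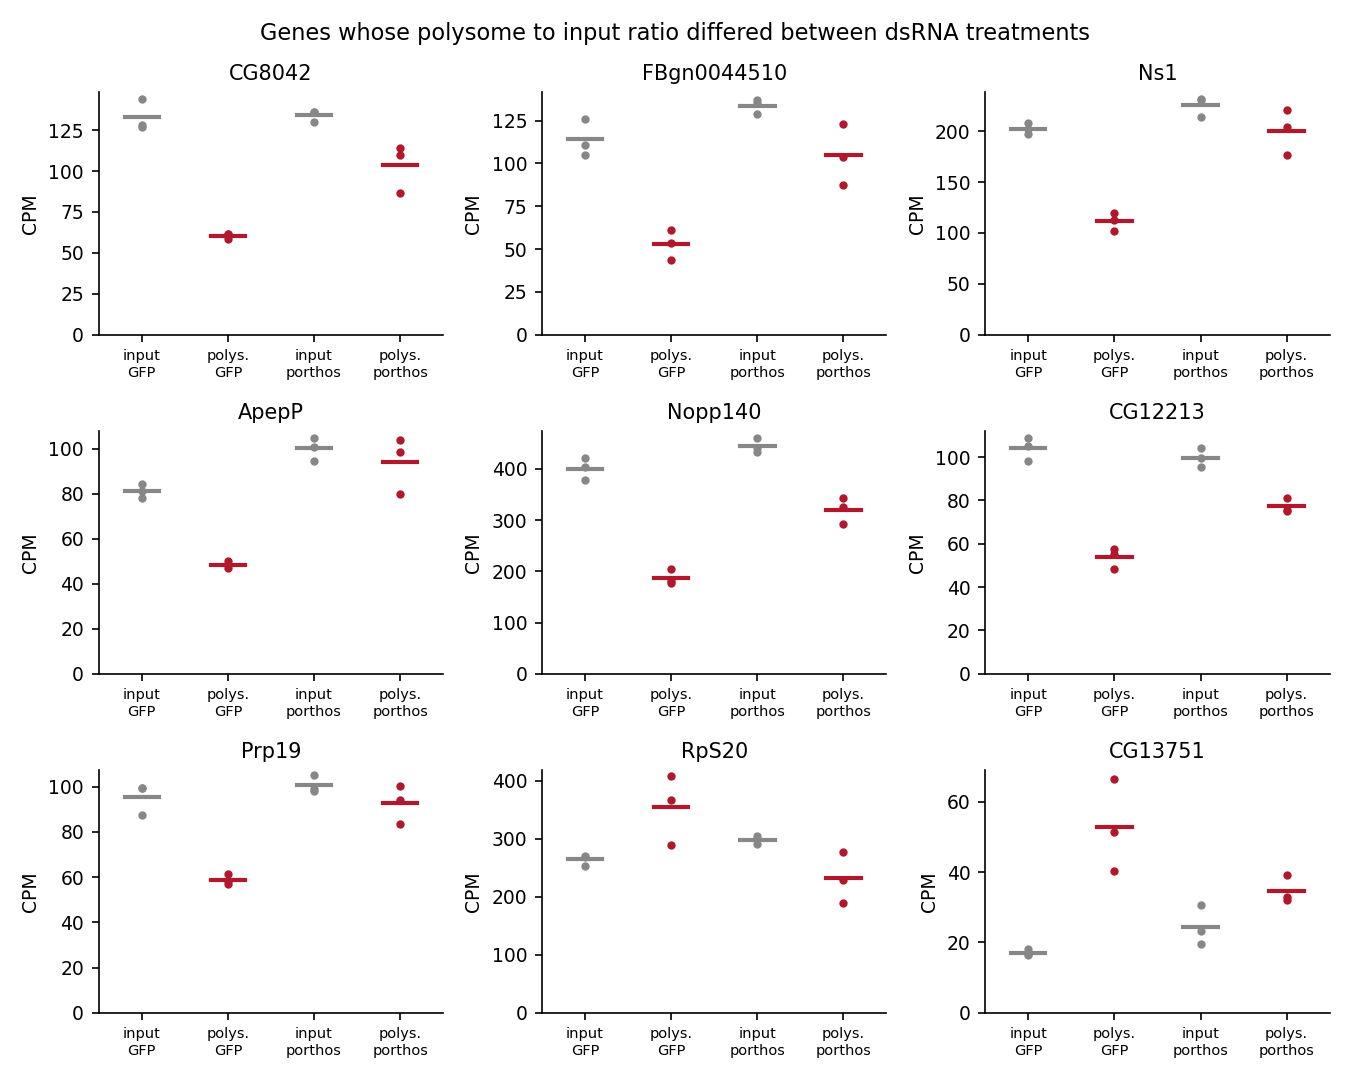
CPM in each library of the 9 genes whose polysome to input ratio differed between the dsRNA treatments, with input in grey, polysome in red and bars at the mean of 3. In the first 7 the control polysome values lie below all others, in CG13751 they lie above all others, and in RpS20 control polysome replicate 3 falls within the inputs.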

How the data were processed

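The authors deposited raw read counts by FlyBase identifier, in a file for each library. HISAT2 2.1.0, featureCounts 1.4.6 and build dm6 are named per the submitters' processing notes. Not given in the sources used here: strandedness of counting, treatment of multiply mapped reads, and annotation release. Near copies and overlapping genes therefore have uncertain counts, and 2387 tested genes have a tested gene opposite. Symbols, coordinates and lengths came from Ensembl release 115, which lacked 376 identifiers holding 5.33% of the counts.

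Polysome and input were compared over the 6 porthos dsRNA libraries with filterByExpr, TMM scaling and edgeR 4.0.16 quasi-likelihood tests (R 4.3.3), with no replicate block, at a Benjamini-Hochberg adjusted p under 0.05. CPM are counts scaled to TMM library sizes. SE was taken as log2 ratio over root F. The difference from GFP dsRNA used all 12 libraries. DESeq2 1.42.0, limma 3.58.1, other scalings and filters, a replicate block and each library left out were alternatives. Length trends were lowess curves (span 0.3) removed as offsets. The fit was tested on simulated data. No replicate pair was alike within counting noise (chi-square per degree of freedom 3.04 to 14.6).

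Members and lists were chosen with earlier results of these data known, and 3 symbols and 1 list name were updated after the files were read. The rule for naming took the 12 genes with the largest ratio in each direction (called, groups not overlapping, at least 10 CPM in a group, with a symbol). It also took up to 4 genes of smallest p per list, pths, up to 5 genes per direction of the difference, and the extreme gene of each length class. Not every gene so chosen appears in the text.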

Additional observations from a re-analysis of the deposited data

Results flagged for a closer look

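The polysome to input ratio of 9 genes differed between porthos and GFP dsRNA by the test of the difference itself (edgeR interaction over 12 libraries). The log2 differences, porthos minus GFP, were 0.77 for CG8042, 0.76 for FBgn0044510, 0.69 for Ns1, 0.66 for ApepP (an aminopeptidase), 0.62 for Nopp140, 0.59 for CG12213 and 0.58 for Prp19 (a ubiquitin ligase of the spliceosome). They were -0.78 for RpS20 and -1.12 for CG13751. In porthos-depleted cells alone, CG13751 was still higher on polysomes (log2 ratio 0.51), and CG8042, FBgn0044510 and CG12213 were still lower (-0.37, -0.34 and -0.35). CG8042, Ns1 and Nopp140 were called under all 9 other settings, and the 9 genes were each called in 2 to 5 of the 12 fits that left out a library. CG8042, ApepP, CG12213, Prp19, FBgn0044510 and CG13751 were not on any list. FBgn0044510 is named by its identifier, and neither the files nor the annotation used here pair it with a symbol.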

How the results depend on the processing

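Of the 3891 calls, 3537 to 3882 were kept under other scalings, tests and no filter, with all 12 libraries in the fit, and with a replicate block, and none changed direction. With a library left out 3196 to 3680 were kept, none with the opposite direction. The replicate block alone gave 2083 higher and 2035 lower genes. Removing the gene length trend kept 1479 and turned 32. Higher and lower calls were then 1022 and 1056, or 1194 and 1195 with the replicate block as well, and 622 and 752 with the protein length trend removed, which was added after the data were seen. At 2-fold, higher calls were 100 with library size alone, 15 with a mean of 10 CPM, 75 with no filter, 18 and 20 with gene length removed without and with the block, and 16 with protein length removed. Lower calls were 90, 101 and 34 in those last 3 fits. Leaving out each library gave 1558 to 2068 higher and 1616 to 2156 lower genes, 47 to 71 and 145 to 200 at 2-fold, a rho with protein length of -0.73 to -0.68 and a gap between short and long classes of 0.97 to 1.04. The rho was -0.83 for genes with a mean of 10 CPM.

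The difference between treatments called 16 genes with library size alone, 227 with DESeq2, 3 with limma voom, 3 with a mean of 10 CPM and 243 with no filter, and 0 to 694 with a library left out. With the replicate block it called 227 genes, and 120 with gene length removed as well. Same-numbered libraries deviated together only weakly (correlations 0.10, 0.04 and 0.04, each the highest for its number), so that the numbers were not taken as pairs.

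List medians changed sign with gene length removed (with and without the block alike) for translation initiation factors (-0.06), signalling and transcription regulators (0.1) and long noncoding RNAs (-0.18), and for the last also with no filter (-0.15). They did so with protein length removed for initiation factors (-0.08), ribosome biogenesis (0.03, and 0.01 with library size alone), plasmatocyte genes (0.02), cytoskeleton (-0.01), signalling regulators (0.01) and ATF4 targets (-0.03). Single genes that did so were Thor (-0.14 with gene length removed, with and without the block, and -0.21 with protein length removed), eEF2 (0.03) and Gadd45 (-0.03), the last pair with protein length removed. The cause was not tested beyond these removals. Below about 10 CPM, depth limits the ratios: the SE of snRNA:U5:34A was 0.54, against 0.08 for poe.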
